A study of Mus musculus with 6 samples.

Results

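Laminins, nidogens and perlecan are glycoproteins of the basement membrane, and 10 of their genes were followed here in injured mouse carotid arteries: Lama2, Lama3, Lama4, Lama5, Lamb1, Lamb2, Lamc1, Nid1, Nid2 and Hspg2. They were chosen by name, with earlier results of these data known. A probe set was assigned to a gene where the array annotation names that gene alone. All 10 genes were measured, by 21 of the 45037 probe sets tested, among 18193 genes named in this way. The study set SMC-IRF9-TG mice, which overexpress mouse IRF9 in smooth muscle cells from an SM22α promoter, against non-transgenic (NTG) mice. The strain is C57BL/6 in the labels and C57BL/6J in the study's methods, which state male mice 10 to 12 weeks old, and the carotid arteries of both groups were collected 14 days after wire injury, so that no uninjured artery was compared. Vessels were pooled, 3 to 5 at a time, and 400 ng of RNA from a pool went onto an Affymetrix array, which gave 3 pools of each genotype. Several transgenic lines were made, and the study states that its later phenotypic work used the line with the highest IRF9 increase. The labels name neither the line nor the animals of a pool. The p-values therefore cover only the spread between these pools, which may be technical.

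The basement membrane is a thin sheet of matrix that underlies endothelial cells and surrounds each smooth muscle cell of the arterial wall. A laminin is a trimer of an α, a β and a γ chain; Lama genes encode α chains, Lamb genes β chains and Lamc genes γ chains. The α4 and α5 chains are the main ones of vascular laminins, the α2 chain is best known from the sheath of muscle fibres, and the α3 chain from the anchorage of epithelium. Nidogens bind the γ1 chain and join the laminin network to type IV collagen, and perlecan, the product of Hspg2, is a heparan sulphate proteoglycan of the same sheet.

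The values are log2 levels made by the authors with RMA, and every difference is SMC-IRF9-TG minus NTG on that scale. Differences were tested with limma and adjusted by the Benjamini-Hochberg method over all 45037 probe sets, and a probe set was called where the adjusted p was below 0.05. The mean level of a group was termed dim where it lay below the mean lower quartile of its arrays, 2.38 in SMC-IRF9-TG and 2.62 in NTG, and no fold change is then given as known. In RNA quality NTG pool 2 stood apart: between the 3′ and 5′ control probes of Actb the gap was 1.56 to 2.50 log2 units over the SMC-IRF9-TG pools, 7.09 in NTG pool 2, and 2.21 and 3.04 in the remaining NTG pools. Although male mice are stated, Xist, which marks female cells, was at 9.94 in NTG pool 1 and 9.50 in NTG pool 2, and at 2.94 to 4.08 elsewhere. The averages of the added poly-A controls were 4.33, 3.95 and 7.53 for SMC-IRF9-TG and 9.72, 6.36 and 8.31 for NTG. The part of RNA quality in the results was not tested. Calls were repeated without each pool and with Xist or poly-A control level as a block.

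Of the 21 probe sets, 4 were called higher by limma, 0 were called lower and 17 did not pass; at an unadjusted p under 0.05 there were 7 higher and 2 lower. Over all probe sets 2.37% were called higher and 0.373% lower, and 11.2% and 11.1% were higher and lower at an unadjusted p under 0.05. The 4 calls belonged to 3 genes, Lamb1, Nid1 and Lama3, by their probe sets of highest mean, with a second probe set of Lamb1. Of the leading probe sets, one for each gene, 3 of 10 were called higher, against 3.11% of all genes taken in the same way, and their median difference was 1.02, against -0.05 over all genes. The groups did not overlap, with SMC-IRF9-TG above NTG, in 8 of the 21 probe sets, and with SMC-IRF9-TG below NTG in 2, against 12.1% and 19.2% of all probe sets. An exact permutation test of 3 pools against 3 cannot give a 2-sided p below 0.1, which each of these 10 probe sets reached.

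**Figure D1:**
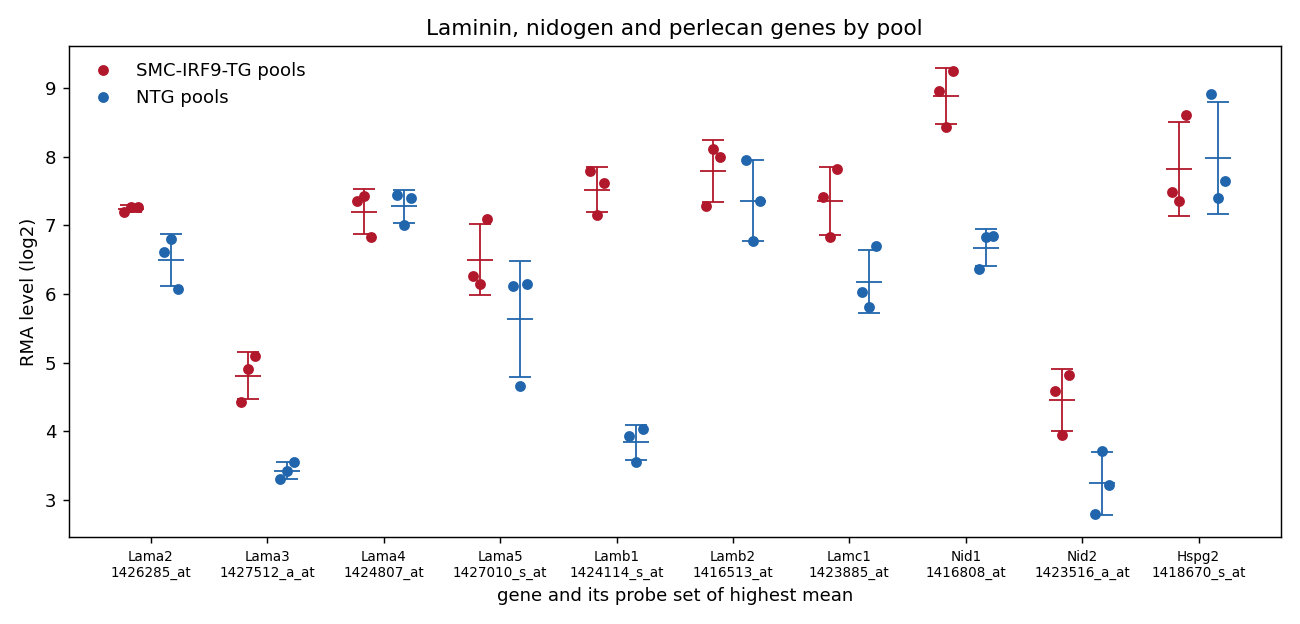
RMA level (log2, y axis) of the leading probe set of each of the 10 genes (x axis), for 3 SMC-IRF9-TG and 3 NTG pools. Points are pools and bars give the mean ± SD; the groups are widest apart for Lamb1, at 7.15 to 7.79 in SMC-IRF9-TG and 3.55 to 4.03 in NTG, and overlap for Lama4, Lama5, Lamb2 and Hspg2.

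Among the β chains, Lamb1 was strongly higher in SMC-IRF9-TG arteries and Lamb2 did not pass. Lamb1, which encodes the β1 chain found in most tissues, read 7.79, 7.15 and 7.61 in SMC-IRF9-TG and 3.93, 3.55 and 4.03 in NTG by probe set 1424114_s_at. The means were 7.52 ± 0.33 in SMC-IRF9-TG and 3.84 ± 0.25 in NTG (SD, n = 3 each), and the lowest SMC-IRF9-TG pool lay 3.12 log2 units above the highest NTG pool. The level rose 12.8-fold (difference 3.68, standard error 0.24, adjusted p = 0.000391 by limma), which ranked 18 of all probe sets by p. The call held without any one of the 6 pools (adjusted p up to 0.00754), and with either block (adjusted p of 0.0212 and 0.0187 for Xist and poly-A controls). A second probe set, 1424113_at, read 4.72, 4.33 and 4.72 in SMC-IRF9-TG and 1.96, 2.84 and 2.05 in NTG, where it was dim, and was also called higher (difference 2.30, adjusted p = 0.0055), a call that held without any one pool and was lost with the Xist block (0.058) or the poly-A block (0.121). The remaining 2 probe sets of Lamb1 were dim in at least 1 group and did not pass, with differences of -0.64 for 1446180_at and -0.08 for 1451241_at, although 1451241_at cites the same sequence record as both called probe sets. Lamb2, which encodes the β2 chain of muscle and vessel laminins, read 7.28, 8.11 and 7.99 in SMC-IRF9-TG and 7.95, 6.77 and 7.35 in NTG by its one probe set, 1416513_at. The groups overlapped (difference 0.44, standard error 0.34, adjusted p = 0.449).

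The nidogens both read higher in SMC-IRF9-TG, and Nid1 was called. Nid1, which encodes nidogen-1, read 8.95, 8.44 and 9.24 in SMC-IRF9-TG and 6.36, 6.82 and 6.84 in NTG by probe set 1416808_at. The means were 8.88 ± 0.41 in SMC-IRF9-TG and 6.67 ± 0.27 in NTG (SD, n = 3 each), 1.60 log2 units apart at their nearest pools. The level rose 4.60-fold (difference 2.20, standard error 0.26, adjusted p = 0.00541), a call that held without any one pool (adjusted p up to 0.0318) and was lost with a block for Xist level (difference 2.04, adjusted p = 0.0901) or for poly-A control level (2.57, adjusted p = 0.0683). Its other probe sets did not pass: 1448469_at, which cites the same sequence record, read 4.93, 5.27 and 5.86 in SMC-IRF9-TG and 4.98, 4.32 and 5.05 in NTG (difference 0.57, adjusted p = 0.288), and the dim 1441519_at differed by 0.01. Nid2, which encodes nidogen-2 and can stand in for nidogen-1 in mice, read 4.58, 3.95 and 4.82 in SMC-IRF9-TG and 2.80, 3.71 and 3.21 in NTG. No pool overlapped, but the difference of 1.21 (standard error 0.31) did not pass (adjusted p = 0.0811). Without NTG pool 2, the highest of its group for this gene, Nid2 passed (difference 1.45, adjusted p = 0.0486).

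As Lamb1 and Nid1 were the called genes with a promoter in the RefSeq table of GRCm38, the sequence before the start of each is shown, with GC boxes (GGGCGG) and CCAAT boxes, found on either strand, in capitals. For Nid1, on chromosome 13 from 13437602 to 13512275, these are the 250 bases before the start. For Lamb1, on chromosome 12 from 31265146 to 31329644, the table's window overlaps the annotated gene, and only the 103 bases before its first annotated base are printed; the GC boxes of its window lie outside that stretch.
Nid1, chr13:13437352-13437601, plus strand: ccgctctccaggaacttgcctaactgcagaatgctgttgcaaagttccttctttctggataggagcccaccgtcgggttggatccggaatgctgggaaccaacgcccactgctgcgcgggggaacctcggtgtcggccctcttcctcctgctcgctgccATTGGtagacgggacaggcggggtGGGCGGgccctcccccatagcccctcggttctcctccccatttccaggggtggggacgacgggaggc
Lamb1, chr12:31265043-31265145, plus strand: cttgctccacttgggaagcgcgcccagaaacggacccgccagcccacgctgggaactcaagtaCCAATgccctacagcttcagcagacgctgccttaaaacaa

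Windows of the 250 bases before the table's start were found for 6 of the 10 genes, Lama2, Lama5, Lamb1, Lamb2, Nid1 and Hspg2. A CCAAT box occurred in 2 of the 6, Lamb1 and Nid1, which is near its share of 33.8% of all 32851 windows. A GC box occurred in 4 of the 6, Lama5, Lamb1, Nid1 and Hspg2, and in 32.7% of all. The AP-1 site TGACTCA and the pair of interferon-response repeats GAAANNGAAA, read on both strands, occurred in none of the 6 windows, and in 4.46% and 2.98% of all, and likewise TATAAA, which 12.4% of all windows hold. The window of Lama2 held a CArG box, the element bound by serum response factor in contractile smooth muscle genes, which 1.47% of all windows hold. It lay 39 to 30 bases before the table's start, inside the annotated gene, and is shown in capitals with 10 bases on each side.
Lama2, chr10:27616962-27616991, minus strand: aaccaaggacCCTTTAAAGGcccaggcctg

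Lamc1, which encodes the γ1 chain shared by most laminins, read 7.41, 6.83 and 7.82 in SMC-IRF9-TG and 6.03, 5.81 and 6.70 in NTG by probe set 1423885_at. The groups were apart by 0.13 log2 units at their nearest pools, and the difference of 1.17 (standard error 0.32) did not pass (adjusted p = 0.0942). The second probe set, 1423886_at, overlapped and differed by -0.27 (adjusted p = 0.519).

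Of the α chains, Lama3 was called higher and Lama2, Lama4 and Lama5 did not pass. Lama3, known from epithelium, read 4.42, 4.91 and 5.09 in SMC-IRF9-TG and 3.31, 3.42 and 3.55 in NTG by probe set 1427512_a_at. The means were 4.81 ± 0.35 in SMC-IRF9-TG and 3.42 ± 0.12 in NTG (SD, n = 3 each) without overlap, and the level rose 2.61-fold (difference 1.38, standard error 0.23, adjusted p = 0.0187). The study lists this probe set among those it selected from these arrays, so its direction is not independent evidence. The call was lost without SMC-IRF9-TG pool 2 (adjusted p = 0.101), SMC-IRF9-TG pool 3 (0.0888) or NTG pool 1 (0.067), and with the Xist block (0.143) or the poly-A block (0.185), and over all alternatives the adjusted p ranged from 0.0125 to 0.185. Probe set 1444860_at of Lama3 read 3.10, 2.86 and 2.94 in SMC-IRF9-TG and 3.09, 3.30 and 3.63 in NTG (difference -0.37, adjusted p = 0.313).

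Lama2 was the most even of the leading probe sets within SMC-IRF9-TG, at 7.19, 7.27 and 7.27, against 6.61, 6.80 and 6.07 in NTG. Its groups did not overlap, and its difference of 0.75 (standard error 0.23) did not pass (adjusted p = 0.122). Lama4, the α chain made by endothelial and smooth muscle cells, read 7.35, 7.42 and 6.83 in SMC-IRF9-TG and 7.43, 7.00 and 7.40 in NTG, so the groups overlapped (difference -0.08, standard error 0.24, adjusted p = 0.851). Its other probe set, 1424808_at, was dim in both groups.

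Lama5, the other vascular α chain, read 6.26, 6.14 and 7.09 in SMC-IRF9-TG and 6.11, 4.66 and 6.15 in NTG by 1427010_s_at (difference 0.86, standard error 0.43, adjusted p = 0.266). NTG pool 2, the pool with the widest gap between 3′ and 5′ control levels, was the low one. The same pool was low by 1427009_at, which read 6.03, 6.14 and 6.99 in SMC-IRF9-TG and 5.87, 3.16 and 5.74 in NTG (difference 1.46, adjusted p = 0.233). Without it the differences of these probe sets were 0.37 and 0.58. The third probe set, 1459614_at, ran the other way, at 1.98, 1.88 and 1.88 in SMC-IRF9-TG, where it was dim, and 2.51, 3.86 and 2.50 in NTG (adjusted p = 0.15).

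Hspg2 overlapped between the groups by both of its probe sets. By 1418670_s_at it read 7.49, 7.36 and 8.61 in SMC-IRF9-TG and 8.92, 7.39 and 7.64 in NTG, with 1 high pool in each group (difference -0.17, standard error 0.46, adjusted p = 0.84). By 1418669_at the difference was -0.19 (standard error 0.26, adjusted p = 0.669).

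Within a group the 10 genes did not vary evenly. SMC-IRF9-TG pool 3 was above its group mean for 9 of the 10 leading probe sets, all but Lama4, with a median deviation of 0.33. SMC-IRF9-TG pool 2 was below it for 6, with a median deviation of -0.36, and NTG pool 2 was below its own for 7, with a median deviation of -0.28. Lama5, Lamc1, Nid1, Nid2 and Hspg2, picked after their values were seen, shared one order in SMC-IRF9-TG, highest in pool 3 and lowest in pool 2. The array medians had the same order, at 3.49 in pool 3, 3.48 in pool 1 and 3.42 in pool 2. Such counts were not taken over all genes, so whether the order is particular to these genes was not tested.

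The balance between chains was compared as the log2 ratio of 2 leading probe sets within each pool, in 9 pairs, so that only the difference of ratios between groups counts and no level is set against another. Relative to the NTG mean, the ratio of Lamb1 to Lamb2 was 4.02, 2.56 and 3.14 in SMC-IRF9-TG and -0.50, 0.30 and 0.21 in NTG, a difference of 3.24 (standard error 0.49), or 0.88 when all probe sets of each gene were averaged. The β1 chain gene was thus higher relative to the β2 chain gene in all 3 SMC-IRF9-TG pools. The ratio of Lamb1 to Lamc1 was 2.50 higher (standard error 0.25), or 0.86 with all probe sets averaged. The ratio of Nid1 to Nid2 was 0.93, 1.05 and 0.99 in SMC-IRF9-TG and 0.13, -0.32 and 0.19 in NTG, a difference of 0.99 (standard error 0.16), and this turned to -0.29 with all probe sets averaged. Nid1 was 1.03 higher relative to Lamc1 (standard error 0.27), or 0.47 with all probe sets averaged. Averages over all probe sets take in probe sets of Lamb1, Nid1 and Lama4 that were dim in a group.

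The ratio of Lama4 to Lama2 differed by -0.83 (standard error 0.38), or -0.78 with all probe sets averaged and -0.56 without NTG pool 3. The ratio of Lama4 to Lamc1 differed by -1.25 (standard error 0.51), or -0.48 with all probe sets averaged and -0.83 without SMC-IRF9-TG pool 3. The ratio of Hspg2 to Lamc1 differed by -1.34 (standard error 0.61), or -0.63 with all probe sets averaged and -0.80 without NTG pool 1. The groups did not overlap in these 7 pairs (exact permutation test, 2-sided p = 0.1, adjusted to 0.129 over the 9 pairs, so none passed a threshold of 0.05, which 3 pools against 3 cannot reach). They overlapped for Lama4 to Lama5 (difference -0.94, standard error 0.60, and -0.46 without SMC-IRF9-TG pool 3 or -0.59 without NTG pool 2) and Lama2 to Lama5 (difference -0.11, standard error 0.72). With other single probe sets in place of the leading ones, the sign turned in at least 1 combination for every pair but Lama4 to Lama2.

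**Figure D2:**
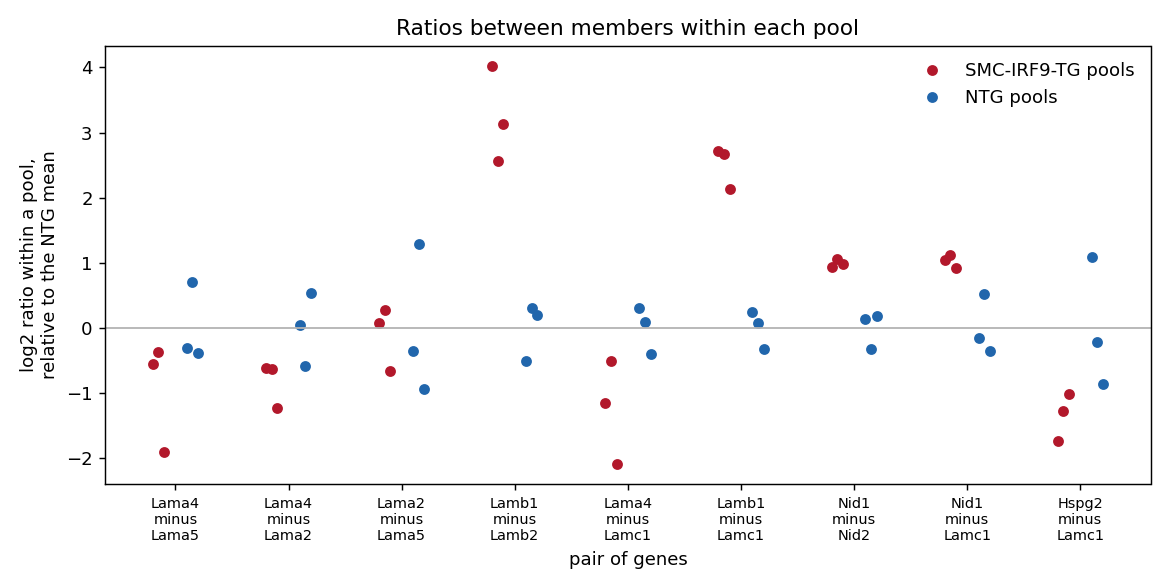
Log2 ratio of 2 leading probe sets within a pool, relative to the mean of the NTG pools (y axis), for 9 pairs of genes (x axis), for 3 SMC-IRF9-TG and 3 NTG pools; each point is a pool. The ratio of Lamb1 to Lamb2 is 2.56 to 4.02 in SMC-IRF9-TG, and the pairs of Lama4 to Lama5 and Lama2 to Lama5 overlap.

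Among laminin chains outside these genes, Lama1, Lamb3 and Lamc3 were examined. Lamb3, the β chain that pairs with the α3 chain in epithelial laminin, read 2.60, 2.51 and 2.82 in SMC-IRF9-TG and 3.63, 3.75 and 3.51 in NTG and fell by 0.99 on the log2 scale (standard error 0.19, adjusted p = 0.0352). The sign of Lamb3 was opposite to that of the leading probe set of Lama3 and the same as that of Lama3 1444860_at (-0.37). The Lamb3 call was lost without any one of the SMC-IRF9-TG pools or without NTG pool 1 (adjusted p up to 0.166), and also after median centring or quantile normalization and with the Xist block (0.169) or the poly-A block (0.685). Lama1 was dim in both groups, and Lamc3 differed by 0.42 (adjusted p = 0.432).

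Of 22 other basement membrane genes, 5 were higher, 0 were lower and 17 did not pass, where 3.11% of all genes were called higher and 0.511% lower. Their median difference was 0.55, against -0.05 over all genes. Fbln2, which encodes the laminin-binding fibulin-2, read 8.33, 8.83 and 9.09 in SMC-IRF9-TG and 7.12, 5.51 and 6.14 in NTG, without overlap, and rose by 2.49 (adjusted p = 0.0168). Sparc, a collagen-binding glycoprotein, rose by 2.19 (adjusted p = 0.0148), Smoc2, a relative of Sparc, by 1.60 (adjusted p = 0.0131), and Col4a5, a type IV collagen chain, by 1.59 (adjusted p = 0.0179). The fifth was Pxdn, the peroxidase that crosslinks type IV collagen, named because it completes the count (difference 1.35, adjusted p = 0.0307). Col4a1 and Col4a2, the chains of the common type IV collagen, differed by 0.06 and 0.63 (adjusted p of 0.921 and 0.331). Without SMC-IRF9-TG pool 2, or without SMC-IRF9-TG pool 3, 0 of the 22 passed, and without SMC-IRF9-TG pool 1 or NTG pool 1, 3 did; with either block 0 passed (adjusted p of the 5 from 0.125 to 0.155 for Xist and from 0.174 to 0.229 for poly-A controls). Some other probe sets of these genes, chosen after their values were seen, were also called. Col4a5 1425475_at (difference 2.79, adjusted p = 0.00392) held without any one pool and with the poly-A block (0.0494) but not the Xist block (0.0764). Sparc 1448392_at (1.66, adjusted p = 0.0113) was called, and so was Col4a6 1421006_at (2.14, adjusted p = 0.0144), although the leading probe set of Col4a6 did not pass. Further probe sets of called genes did not pass and had differences below 0. They were Sparc 1458204_at (-0.59, adjusted p = 0.18, without overlap), Fbln2 1438375_at (-0.03, adjusted p = 0.933, dim in NTG) and Smoc2 1431362_a_at (-0.01, adjusted p = 0.981).

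Of 17 laminin receptor genes, 1 was higher and 16 did not pass, where 3.11% of all genes were called higher. Their median difference was 0.07, against -0.05 over all genes. Itga6, the integrin α6 subunit of laminin receptors, read 6.98, 6.92 and 6.83 in SMC-IRF9-TG and 4.97, 3.64 and 4.96 in NTG (difference 2.39, standard error 0.35, adjusted p = 0.0126), and did not pass without SMC-IRF9-TG pool 1 or pool 2 (adjusted p up to 0.0677), or with the Xist block (0.138) or the poly-A block (0.275). Its other probe set, 1422444_at, differed by 1.53 (adjusted p = 0.0544). Its partners Itgb1 and Itgb4 differed by 1.66 and 1.06 (adjusted p of 0.13 and 0.245). NTG pool 2 was the lowest of its group for both, and without it these differences were 0.99 and 0.39. The dystroglycan gene Dag1, the receptor that binds the α2 chain, differed by 0.07 (adjusted p = 0.871).

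The smooth muscle marker Acta2 averaged 13.6 in SMC-IRF9-TG and 13.4 in NTG, and of 10 contractile genes 0 passed in limma and 0 had an unadjusted p under 0.05. Some markers of other cell types also differed between the groups. Over all genes 3.11% were called higher and 0.511% lower by limma. Over all probe sets 11.2% were higher and 11.1% lower at an unadjusted p under 0.05. Of 14 macrophage markers 13 were higher, and their summed level was 12.1 to 12.6 (log2) in SMC-IRF9-TG and 7.90 to 8.69 in NTG; each of the 13 calls held without any one pool, and 10 held with the Xist block and 6 with the poly-A block. Of 10 fibroblast markers 5 were higher, 3 had a difference below 0, and 1 of these was lower at an unadjusted p under 0.05. Their summed level was 13.9 to 14.0 in SMC-IRF9-TG and 12.5 to 12.7 in NTG. Lum, Col1a1 and Col3a1 held without any one pool, while Pdgfra and Dcn did not pass in 5 of the 6 fits that left out a pool. Of 11 endothelial markers Tie1 and Erg were higher, 0 were lower in limma, and 3 had a difference below 0. The largest fall was that of Vwf (difference -0.81, adjusted p = 0.237), which passed only without NTG pool 3 (adjusted p = 0.0351). The Tie1 and Erg calls did not hold without any one of the SMC-IRF9-TG pools or without NTG pool 3 (adjusted p up to 0.153 and 0.172). The summed level of the 11 was 10.3 to 10.5 in SMC-IRF9-TG and 9.65 to 11.0 in NTG. Of 11 markers of epithelium and thyroid, listed because the α3 chain is an epithelial one, 0 were higher and Cdh1 was lower in limma, and 7 were lower at an unadjusted p under 0.05. Of these 7, Krt14 was dim in SMC-IRF9-TG. Krt17, Pax8 and Cdh1 averaged 2.38, 2.43 and 2.51 there, near the lower quartile of 2.38, and Krt5, Epcam and Tshr averaged 4.03, 5.98 and 4.17. Cdh1 passed only without NTG pool 3 when a pool was left out (adjusted p up to 0.147), and it too is on the study's list from these arrays, so its direction is not independent evidence. With the Xist block Lum was the 1 fibroblast marker called higher, with the poly-A block Lum and Col1a1 were, and with either block Tie1, Erg and Cdh1 did not pass. Of the markers of skeletal muscle, nerve and adipocytes 0 passed. At an unadjusted p under 0.05, 2 of 11 of skeletal muscle and 1 of 7 of nerve were lower, beside 11.1% of all probe sets. Myh2, Myh4, Tnnt3, Nefm, Adipoq and Cidec were dim in both groups, and Myh1, Nefl, Krt14 and Krt15 in SMC-IRF9-TG alone. The part of these cell types in the results was not tested, and in pooled vessels more cells of a type and more RNA per cell cannot be told apart.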

How the data were processed

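Gene expression was measured on Affymetrix arrays in 6 pools of injured carotid artery, 3 of each genotype, all of which entered the fit. The deposited log2 levels were made by the authors in Affymetrix Expression Console by RMA, which the submitters' processing notes name without a version. RMA subtracts background, equalizes arrays by quantiles and summarizes probes, yet array medians ran from 3.42 to 3.66. These values were used as they stand. Scanner files were not analysed here, so whether a low level exceeds background is unknown, as is where a probe set lies in its transcript.

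After 64 controls were removed from 45101 probe sets, 34945 carried 1 gene symbol in the annotation, 932 carried several and 9160 carried no symbol. Genotypes were compared 2-sided with limma 3.58.1 (lmFit, eBayes) in R 4.3.3, adjusted by Benjamini-Hochberg over 45037 probe sets at a threshold of 0.05. Ratios were compared by an exact permutation test in Python 3.11.15. The limma step was first tested on simulated data. No array test is stated in the study's methods, which name a t-test in general. A gene is represented by its probe set of highest mean over the arrays, called leading. Every probe set of the 10 genes is described; in the lists of related genes, up to 4 called genes with the largest change are named, or the 2 of highest mean where 0 were called, and further names were chosen after their values were seen. The 10 genes and all lists were chosen with earlier results of these data known.

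Alternatives were median centring, quantile normalization, a dim filter, a trended robust prior, array weights, the t-test, a replicate block, leaving out each pool, and averaging a gene's probe sets. The dim filter kept probe sets whose mean was at or above the median over all probe sets, a wider cut than the term dim. It therefore also removed probe sets, such as that of Lamb3, that were not dim in either group. Fits with pools of high Xist, or of low poly-A controls, as a block were chosen after seeing the data.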

Additional observations from a re-analysis of the deposited data

How the results depend on the processing

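Lamb1 1424114_s_at was called in 14 of 15 alternatives (adjusted p from 0.000195 to 0.0791), Nid1 1416808_at in 12 of 15, Lamb1 1424113_at in 11 of 14 and Lama3 1427512_a_at in 9 of 15. The 4 member probe sets called higher became 3 to 5 with a pool left out, 0 by the methods' t-test after adjustment and 7 before it, and 1, Lamb1 1424114_s_at, with the block for high Xist or for low poly-A controls. Under those blocks the difference rests on 1 pool of a group, NTG pool 3 for Xist and SMC-IRF9-TG pool 3 for poly-A controls, which is assumed to vary like the others. Deviations of same-numbered pools from their group means correlated at -0.15, -0.0006 and 0.027. With 3 pools a group this cannot settle whether the replicate numbers pair samples. With the replicate block the members called higher stayed at 4, and over all probe sets 659 were higher and 71 lower.

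Over all probe sets, the 1069 called higher became 547 with quantile normalization, 0 by the adjusted and 3558 by the unadjusted t-test, 174 with the Xist block, 52 with the poly-A block and 297 to 1268 with a pool left out. The 168 called lower became 111 with median centring, 1 and 4806 by the adjusted and unadjusted t-test, 18 and 3 with the Xist and poly-A blocks, and 23 to 583 with a pool left out. Of the other laminin chains, 0 were called lower with median centring, quantile normalization, the adjusted t-test and all 3 blocks, against Lamb3 alone without them, and 0 to 1 with a pool left out; the dim filter removed Lamb3 and Lama1, which left 0 calls and Lamc3 alone at 0.42. Of the other basement membrane genes, 3 were higher with quantile normalization, 0 by the adjusted t-test and with the Xist and poly-A blocks, and 0 to 4 with a pool left out. Of the receptors, 0 were higher by the adjusted t-test and with either of those blocks, and 0 to 1 with a pool left out; their median was 0.16 with median centring, -0.11 with quantile normalization, 0.17 with the dim filter and -0.039 to 0.093 with a pool left out.

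When all probe sets of a gene were averaged, the difference became 0.88 for Lamb1 to Lamb2, 0.86 for Lamb1 to Lamc1, 0.47 for Nid1 to Lamc1 and -0.29 for Nid1 to Nid2, which was 0.68 with quantile normalization. The ratio of Lama2 to Lama5 ran from -0.58 to 0.53 with a pool left out. Signs changed without a call for Hspg2 1418669_at (0.14, poly-A block), Hspg2 1418670_s_at (0.18 and 0.63, Xist and poly-A blocks, and -0.56 to 0.30 with a pool left out), Lamc1 1423886_at (0.10, Xist block), Lama4 1424807_at (0.014, median centring, and -0.22 to 0.11 with a pool left out), Lama4 1424808_at (-0.49, Xist block, and -0.11 to 0.28 with a pool left out), Nid1 1441519_at (-0.094 to 0.11 with a pool left out) and Lamb1 1451241_at (0.013, 0.16 and 0.054, by median centring, quantile normalization and the poly-A block). The cause of these changes was not tested. With 3 pools a group, and NTG pools that correlated less with each other than SMC-IRF9-TG pools did, small differences could not be resolved.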
